A study of Oryctolagus cuniculus with 6 samples.

Results

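The small leucine-rich proteoglycans are secreted proteins of connective tissue, and 10 of them were followed here in rabbit tracheal mucosa: osteoglycin (OGN), asporin (ASPN), keratocan (KERA), lumican (LUM), decorin (DCN), biglycan (BGN), fibromodulin (FMOD), prolargin (PRELP), osteomodulin (OMD) and epiphycan (EPYC). They were taken by symbol from the gene table, and all 10 had a row among its 29587 rows. Polyadenylated RNA was sequenced from the trachea of 3-month-old rabbits of the New Zealand breed. In the high cuff pressure group (3 libraries) a 3.0 mm tube was passed 13 cm down the trachea and its cuff kept at 35 cmH2O for 2 h to injure the mucosa. The labels do not say what the control animals (3 libraries) underwent or when tissue was collected. The family was selected on the fold changes of this same comparison, in which OGN, ASPN, KERA and LUM were among the genes that fell. The values below therefore describe the family, and the calls are no independent support for a change in it.

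Each of these proteins has a core of leucine-rich repeats that can bind collagen fibrils, and most carry glycosaminoglycan chains. In connective tissue they help set the width and spacing of fibrils, and several also bind growth factors such as TGF-beta. Decorin, biglycan and asporin form class I of the family; fibromodulin, lumican, prolargin, keratocan and osteomodulin form class II; osteoglycin and epiphycan form class III. Fibroblasts are their main source in most soft tissues, and cartilage and tendon cells make some of them.

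The libraries held 10501734 to 14415754 counts. Levels are CPM, counts scaled to a common library size, after TMM scaling unless stated otherwise, and on that scale 3 counts equal 0.193 to 0.353 CPM. Throughout, errors are the SD over 3 libraries, and log2 fold changes are high cuff pressure minus control with their SE from edgeR's quasi-likelihood fit over the 13724 genes that passed a filter on low counts. The labels name the cells as epithelial, but smooth muscle markers summed to 608 to 10027 CPM beside 2247 to 4929 CPM for epithelial markers, so the libraries also held RNA of deeper layers. High cuff pressure replicate 1 stood apart: its smooth muscle markers summed to 608 CPM against 4762 to 10027 CPM in the other 5 libraries, and its fibroblast markers, counted without proteoglycans, to 396 CPM against 1368 to 2507 CPM. The members' values are therefore given by library, and the fit was repeated without that library. In bulk tissue, fewer cells of a type and less RNA per cell cannot be told apart.

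With high cuff pressure 4 of the 9 tested members fell, 0 rose, and 5 did not pass the threshold. ASPN, KERA and OGN were 15.2-fold, 11.3-fold and 9.31-fold lower, and LUM was 3.64-fold lower, while BGN, a class I member, stood at about the same mean in both groups. A call was an edgeR adjusted p under 0.05 over all genes tested, of which 1.62% were called lower and 3.67% higher. The tenth member, OMD, had too few counts to pass the filter. Over all genes, 222 were lower and 503 higher, a split that was 1241 lower among 1630 called with total-count scaling. Leaving out high cuff pressure replicate 1, OGN, ASPN, KERA and LUM were again the 4 called. That fit called many more genes in the whole table, 2623 of 14064, of which 1261 were lower. The number of members called was 0 without high cuff pressure replicate 2, control replicate 2 or control replicate 3. In these settings only 4, 0 and 0 genes passed in the whole table. It was 1 (ASPN) without control replicate 1, with 76 genes in the whole table. Without high cuff pressure replicate 3 it was 3, LUM being lost (edgeR adjusted p = 0.075), so that LUM passed in 1 of the 6 fits that left out a library. With control replicate 2 left out 2691 genes had an unadjusted p under 0.05, and 2496 with control replicate 3 left out. In all 6 fits OGN, ASPN, KERA and LUM kept negative log2 fold changes.

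**Figure D1:**
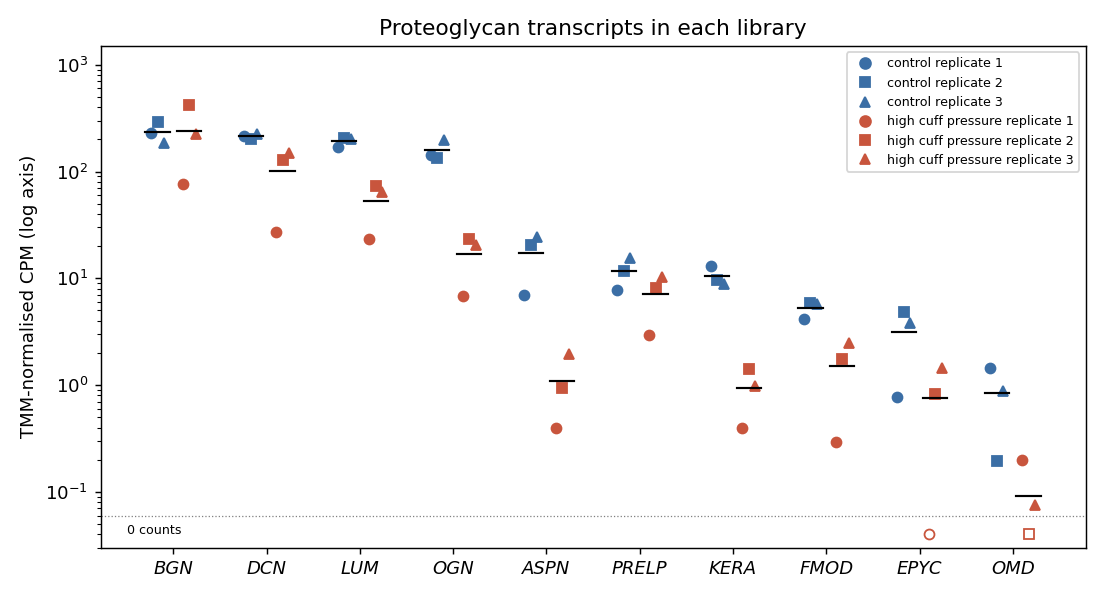
TMM-normalised CPM (vertical log axis) of the 10 proteoglycans in each of 3 control (blue) and 3 high cuff pressure (red) libraries; marker shapes are replicates, black lines group means, and open markers below the dotted line libraries with 0 counts. The red points of OGN, ASPN, KERA and LUM all lie below the blue ones, those of BGN lie on both sides, and high cuff pressure replicate 1 (circle) is the lowest red point for 9 of 10 genes.

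OGN, the class III member once called mimecan, had 143, 134 and 195 CPM in control replicates 1 to 3 and 6.80, 23.5 and 20.4 CPM with high cuff pressure. The highest library of the injured group was thus far below the lowest control. The means were 16.9 ± 8.89 against 157 ± 33.1 CPM (log2 fold change -3.22 ± 0.46 SE). Leaving out high cuff pressure replicate 1 gave -2.84. Counts behind these levels were ample in every library, from 69 to 2680.

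ASPN, a class I relative of decorin that binds TGF-beta and collagen, had 7.01, 20.5 and 24.3 CPM in the controls and 0.394, 0.941 and 1.97 CPM with high cuff pressure. The groups did not overlap, but control replicate 1 was well under the other controls, and the injured libraries held only 4, 8 and 26 counts. The log2 fold change was -3.92 ± 0.68 SE, or -4.70 without high cuff pressure replicate 3. KERA, a keratan sulfate proteoglycan best known from the cornea, had 13.2, 9.65 and 8.82 CPM in the controls and 0.394, 1.41 and 0.985 CPM with high cuff pressure, from 4, 12 and 13 counts. The lowest control lay far above the highest injured library, and the log2 fold change was -3.50 ± 0.49 SE.

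LUM, a class II proteoglycan widespread in soft connective tissue, had 170.5, 207 and 204 CPM in the controls and 23.2, 72.5 and 63.9 CPM with high cuff pressure. All injured libraries lay below all controls, and the means were 53.2 ± 26.4 against 193.7 ± 20.2 CPM (log2 fold change -1.86 ± 0.40 SE). FMOD, a class II member that binds collagen at sites it shares with lumican, had 4.19, 5.86 and 5.76 CPM in the controls and 0.296, 1.77 and 2.50 CPM with high cuff pressure. Its groups did not overlap either, yet its log2 fold change of -1.77 ± 0.63 SE missed the threshold (edgeR adjusted p = 0.12). FMOD passed with DESeq2 (DESeq2 adjusted p = 0.035), which called 1163 of 20174 genes lower, where the reported fit called 222 of 13724. Only 3 counts of FMOD were in high cuff pressure replicate 1.

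DCN, the class I proteoglycan that binds collagen and TGF-beta, was among the members with most counts, and its controls were close together at 217, 201 and 227 CPM. With high cuff pressure it had 27.3, 127 and 150.2 CPM, so the groups did not overlap but high cuff pressure replicate 1 stood far below the other 2. The log2 fold change of -1.08 ± 0.53 SE missed the threshold (edgeR adjusted p = 0.22), and it was -0.63 without high cuff pressure replicate 1. PRELP, a class II member of basement membranes and cartilage, had 7.78, 11.6 and 15.5 CPM in the controls and 2.96, 8.12 and 10.3 CPM with high cuff pressure. The groups overlapped (log2 fold change -0.70 ± 0.49 SE, edgeR adjusted p = 0.36).

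BGN, which carries chondroitin or dermatan sulfate chains like decorin and can act on toll-like receptors when soluble, had 230.3, 292 and 186 CPM in the controls and 76.6, 421 and 224 CPM with high cuff pressure. The injured group held both the lowest and the highest of the 6 libraries, and the means were 240 ± 173 against 236 ± 53.1 CPM. The log2 fold change was 0.02 ± 0.53 SE (edgeR adjusted p = 0.98), with values from -0.65 to 0.45 as single libraries were left out, so no direction is given for its level. A value this close to 0 with such an SE does not show that BGN was the same in both groups.

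The 2 scarcest members gave little information. EPYC, a class III proteoglycan of cartilage, had 9, 75 and 52 counts in the controls and 0, 7 and 19 with high cuff pressure, and the groups overlapped (log2 fold change -2.01 ± 0.99 SE, edgeR adjusted p = 0.22). It was -2.98 without high cuff pressure replicate 3 and -1.44 without replicate 1 of that group. OMD, a keratan sulfate proteoglycan of bone, had 17, 3 and 12 counts in the controls and 2, 0 and 1 with high cuff pressure. Its ratio of summed counts, control over high cuff pressure, was 8.29 after scaling (exact 95% interval 2.59 to 42.3, counting error only), and the groups overlapped. In all, 6 of the 9 tested members had groups that did not overlap, all of them lower, where 18.7% of all genes tested did so in that direction. The median log2 fold change was -1.86 over the 9 tested members and -0.01 over all genes tested. The members' median was -2.61 without high cuff pressure replicate 3 and -1.47 without replicate 1 of that group, over the 10 members that then passed the filter.

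In the authors' deposited table, 5 of the 10 members met a q-value under 0.05 with at least a 2-fold lower mean FPKM (a read level scaled to gene length and library size), a rule met by 3.67% of its 19001 genes, and 0 members met the rule for a higher mean, which 3.97% met. They were OGN, ASPN, KERA, LUM and OMD. The authors' q-value in that deposited table was 2e-09 for OGN, 0.043 for OMD, 0.051 for FMOD and 0.16 for DCN. Among the authors' deposited Gene Ontology results, the extracellular matrix term held 49 of their differential genes, 27 higher and 22 lower, and OGN, ASPN, LUM and OMD were among the lower ones (rich factor 2.02, q-value 0.0011).

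How the members stood to each other within a library does not depend on library scaling. Counts of OGN equalled 65.8%, 66.6% and 86.1% of DCN counts in the 3 controls and 24.9%, 18.5% and 13.6% with high cuff pressure. The OGN to DCN ratio was thus lower in every injured library, including high cuff pressure replicate 1, where the smooth muscle and fibroblast sums were low. For KERA the ratio was 6.06%, 4.80% and 3.89% in controls and 1.44%, 1.11% and 0.656% with high cuff pressure. For ASPN it was 3.22%, 10.2% and 10.7% in controls and 1.44%, 0.741% and 1.31% with high cuff pressure, again without overlap. The ratio of LUM to DCN was 78.5%, 103% and 89.8% in controls and 84.8%, 57.1% and 42.6% with high cuff pressure, and the groups overlapped. BGN was higher relative to DCN, with 106%, 145% and 82.2% of DCN counts in controls and 281%, 332% and 149% with high cuff pressure. PRELP overlapped, at 3.58% to 6.85% in controls and 6.39% to 10.8% with high cuff pressure. How many of all genes separate on the ratio to DCN was not computed.

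**Figure D2:**
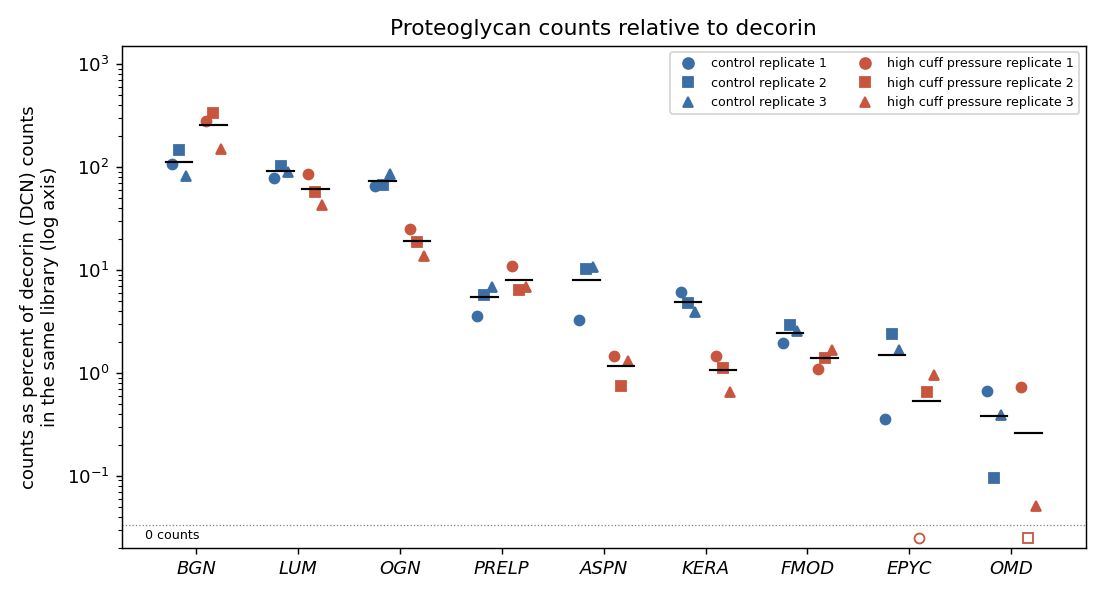
Counts of 9 proteoglycans as a percent of decorin counts in the same library (vertical log axis), for 3 control (blue) and 3 high cuff pressure (red) libraries; black lines are group means and open markers are libraries with 0 counts. Red points lie below all blue points for OGN, ASPN, KERA and FMOD, above them for BGN, and among them for LUM, PRELP, EPYC and OMD.

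Set against the summed counts of 17 fibroblast markers that are not proteoglycans, OGN stood at 10.1%, 5.34% and 14.3% in controls and at 1.72%, 1.51% and 1.02% with high cuff pressure. The marker sum is partly a collagen level: COL1A1, COL1A2, COL3A1 and DPT are also in the list of fibrillar collagen and fibril assembly genes described below. The groups of OGN, ASPN, KERA, LUM and FMOD did not overlap on this measure, all lower with high cuff pressure. How many of all genes separate on this measure was not computed. On CPM, 18.7% of all genes tested did so in that direction. DCN, at 15.4%, 8.02% and 16.6% in controls and 6.90%, 8.15% and 7.53% with high cuff pressure, overlapped, as did BGN, PRELP, EPYC and OMD. When the whole table was scaled to level these fibroblast markers, a fit added after seeing the data, the median of all genes moved to 0.87. The log2 fold changes on this scale were -2.86 for OGN, -3.68 for ASPN, -3.07 for KERA, -1.42 for LUM and 0.43 for BGN. In this fit ASPN and KERA passed, and OGN (edgeR adjusted p = 0.063) and LUM (0.46) did not. Over the whole table it called 342 of 13724 genes, only 11 of them lower.

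Per length, on the FPKM scale, the order of mean levels in controls was LUM (121 ± 22.5), DCN (103 ± 10.2), OGN (73.0 ± 18.8), BGN (72.9 ± 19.2), ASPN (15.7 ± 8.93), PRELP (9.92 ± 3.90), KERA (6.96 ± 0.875), FMOD (4.49 ± 1.14), EPYC (2.61 ± 1.84) and OMD (0.738 ± 0.510). Only BGN and ASPN, and KERA and FMOD, were neighbours in this order whose control ranges did not overlap. With high cuff pressure the order of mean FPKM began with BGN (54.9 ± 36.5), DCN (36.9 ± 24.3) and LUM (24.8 ± 11.8), followed by OGN (5.87 ± 2.97). The spread between the injured libraries was wide, and the ranges of these first 3 overlapped.

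As shares of the summed FPKM of all 10 members, LUM took 28.2%, 30.5% and 29.2% in controls and 24.8%, 17.4% and 19.4% with high cuff pressure. OGN took 17.7%, 14.7% and 20.9% in controls and 5.45%, 4.23% and 4.61% with high cuff pressure. BGN took 19.0%, 21.4% and 13.3% in controls and 40.9%, 50.4% and 33.7% with high cuff pressure, the most of any member in high cuff pressure replicates 1 and 2. The DCN share overlapped, at 23.02% to 27.9% in controls and 22.7% to 35.3% with high cuff pressure. Biglycan thus made up a larger share of the pool, and osteoglycin and lumican a smaller one, in each injured library than in any control. The pool itself was smaller in the injured libraries, and the FPKM of BGN was 63.7, 94.9 and 60.1 in controls and 18.4, 91.4 and 54.9 with high cuff pressure, so on this scale no injured library exceeded the highest control.

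**Figure D3:**
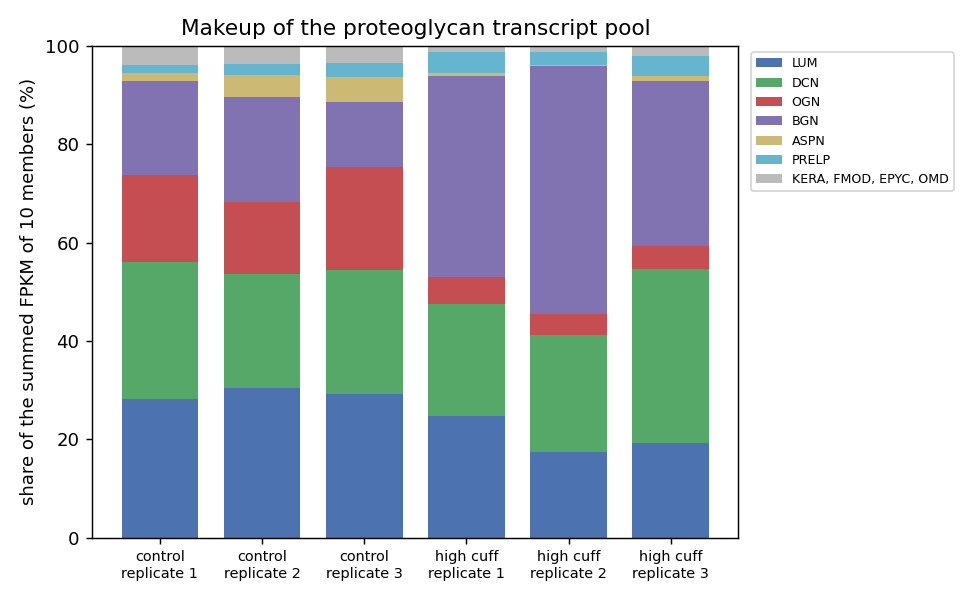
Share (%) of the summed FPKM of the 10 proteoglycans taken by each member, one stacked bar per library, 3 controls at the left and 3 high cuff pressure libraries at the right. BGN takes 33.7% to 50.4% of the bar with high cuff pressure against 13.3% to 21.4% in controls, and OGN 4.23% to 5.45% against 14.7% to 20.9%.

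Within the injured group, 9 of the 10 members had their lowest CPM of the injured group in high cuff pressure replicate 1, the exception being OMD, where over all genes tested 36.9% were lowest there. The range within that group, highest over lowest library, was 5.5-fold for DCN and for BGN, 3.46-fold for OGN and 3.13-fold for LUM. In the controls it was 1.13-fold for DCN, 1.57-fold for BGN, 1.46-fold for OGN and 1.21-fold for LUM. The controls shared no such order: replicates 1, 2 and 3 were the lowest control for 5, 3 and 2 members, and for 35.5%, 32.2% and 32.3% of all genes tested. With 3 libraries a group, no correlation between members was computed.

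**Figure D4:**
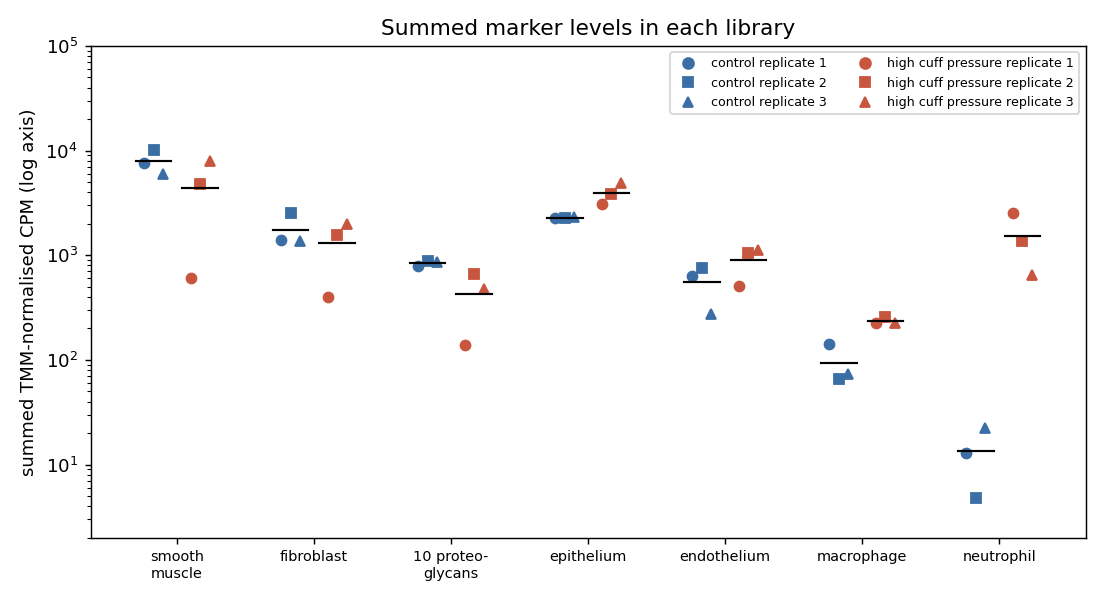
Summed TMM-normalised CPM (vertical log axis) of cell type marker lists and of the 10 proteoglycans in 3 control (blue) and 3 high cuff pressure (red) libraries; black lines are group means. High cuff pressure replicate 1 (red circle) is lowest of all libraries for smooth muscle, fibroblast and proteoglycan sums, and neutrophil markers sum to 649 to 2536 CPM in red against 4.83 to 22.6 CPM in blue.

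Cell type markers were counted beside these results, and their part in them was not tested. Of 17 fibroblast markers tested, 1 fell and 0 rose, with a median log2 fold change of -0.31. Without high cuff pressure replicate 1 the median was 0.19, and 1 fell and 1 rose, in a fit that called 2623 of 14064 genes. MFAP4, a microfibril protein, had 213, 315 and 171 CPM in controls and 13.3, 106 and 115 CPM with high cuff pressure and did not pass (edgeR adjusted p = 0.17). The one that fell was SFRP2, a secreted Wnt modulator, with 113, 169 and 109.6 CPM in controls and 2.56, 11.2 and 15.3 CPM with high cuff pressure. Of 8 smooth muscle markers 0 passed, with a median of -0.76. That median was -0.24 without high cuff pressure replicate 1 and -1.43 without replicate 3 of that group, where 1 fell. Of 8 cartilage markers tested 0 passed, and the whole list summed to 52.6 to 114 CPM over the 6 libraries. MATN1 and CNMD had its highest mean FPKM. As single libraries were left out, the log2 fold change ran from 1.06 to 1.62 for MATN1 and from -1.90 to -0.93 for CNMD. The cartilage collagen COL2A1 was at 0.296 to 0.684 CPM in all 6 libraries, with UCMA at 0. Of 3 tendon and perichondrium markers tested, THBS4, a matrix thrombospondin, fell (-2.45), and FIBIN and CILP did not pass. Over the fits that left out a library, FIBIN ran from -2.40 to -1.09 and CILP from -0.90 to 0.65. The tendon marker TNMD had 1 count in all. Schwann cell (8 tested) and adipocyte (3 tested) markers had 0 called in either direction. Neutrophil markers rose in 7 of 7 tested, macrophage markers in 4 of 11, epithelial markers in 1 of 12 and endothelial markers in 1 of 9, with 0 lower in each. In the whole table the quasi-likelihood fit called 5.28% of genes.

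Of the other genes of the family, 4 were tested. ECM2, a leucine-rich matrix protein gene beside ASPN, had 12.1, 9.01 and 14.1 CPM in controls and 0.986, 2.59 and 3.79 CPM with high cuff pressure and fell (log2 fold change -2.24 ± 0.49 SE). PODN, podocan, had 55.6, 54.6 and 34.6 CPM in controls and 8.38, 31.3 and 25.8 CPM with high cuff pressure; its groups did not overlap, but it did not pass (log2 fold change -1.15, edgeR adjusted p = 0.15). TSKU, tsukushi, and CHADL, a chondroadherin relative, had overlapping groups, with log2 fold changes of -0.56 and 0.07. OPTC and NYX, both known from the eye, held at most 3 counts in any library.

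Collagen fibrils are what these proteins bind. Of 23 fibrillar collagen and fibril assembly genes tested, 0 passed in either direction, with a median log2 fold change of -0.08. COL1A2, a chain of type I collagen, had 204.5, 493 and 221 CPM in controls and 67.3, 249 and 452 CPM with high cuff pressure. COL3A1, the type III collagen chain, had 339, 835 and 461 CPM in controls and 93.8, 435 and 606 CPM with high cuff pressure. The groups of both genes overlapped, and both genes also count among the fibroblast markers above. Without high cuff pressure replicate 1, 3 of the 23 rose and 0 fell. In the whole table that fit called 2623 of 14064 genes, 1261 of them lower and the rest higher.

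**Figure D5:**
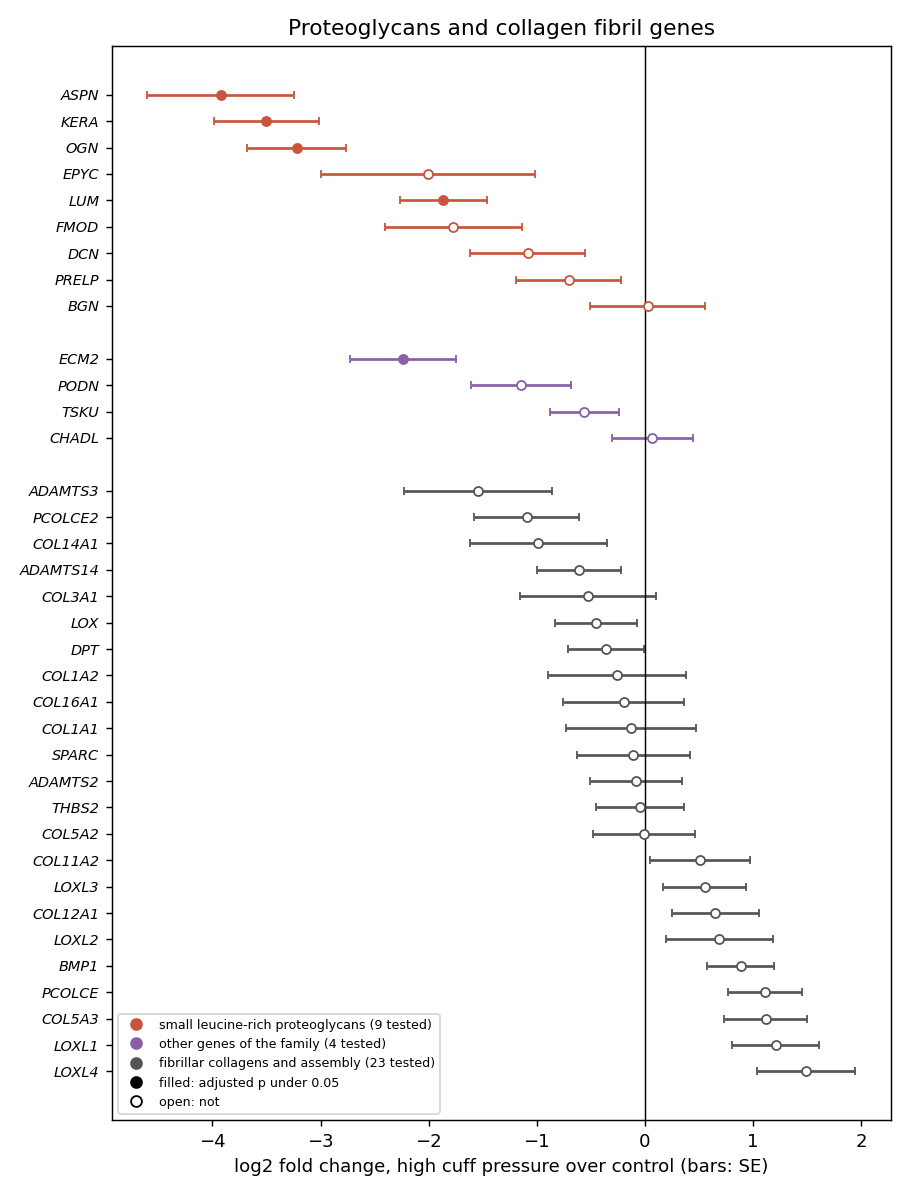
Log2 fold change (horizontal axis, high cuff pressure over control, bars are SE) of the 9 tested proteoglycans, 4 other genes of the family and 23 fibrillar collagen and fibril assembly genes; filled points passed an adjusted p of 0.05. ASPN (-3.92), KERA (-3.50), OGN (-3.22), LUM (-1.86) and ECM2 (-2.24) are filled, and 0 of the 23 collagen fibril genes are.

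Of 20 enzyme genes tested for chondroitin and dermatan sulfate synthesis, 0 passed, with a median of 0.22. CSGALNACT2, which starts chondroitin chains, had 68.9, 115 and 103 CPM in controls and 84.2, 32.5 and 33.3 CPM with high cuff pressure. The groups overlapped through high cuff pressure replicate 1 alone, and its log2 fold change was -0.94 with all libraries and -1.54 without that one, where it was the 1 gene of the 20 that fell (edgeR adjusted p = 0.019). Of 5 enzyme genes for keratan sulfate, the chain that KERA, LUM and FMOD can carry, 0 passed. B3GNT2, which extends such chains, came closest, with 69.9, 74.8 and 85.1 CPM in controls and 53.3, 32.4 and 33.8 CPM with high cuff pressure (log2 fold change -0.94, edgeR adjusted p = 0.067). Leaving out high cuff pressure replicate 1, it passed (-1.21, edgeR adjusted p = 0.017). In the whole table the fit without that library called 1261 of 14064 genes lower.

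Of 18 proteoglycans outside the family that were tested, 2 rose and 0 fell, with a median of 0.11. VCAN, the large chondroitin sulfate proteoglycan versican, had 15.0, 21.2 and 16.2 CPM in controls and 49.0, 35.9 and 57.4 CPM with high cuff pressure (log2 fold change 1.44 ± 0.27 SE, edgeR adjusted p = 0.034). SRGN, serglycin, the proteoglycan of leukocyte granules, rose by 2.19 on the log2 scale. The neutrophil sums given above were higher in the same libraries, and their part in this was not tested. SDC1, the cell surface proteoglycan syndecan-1, had 105.03, 83.3 and 83.2 CPM in controls and 142, 142 and 210.01 CPM with high cuff pressure and did not pass (log2 fold change 0.86, edgeR adjusted p = 0.071). Leaving out high cuff pressure replicate 1, 21 genes of this list were tested, and 3 rose and 2 fell with a median of 0.46. SDC1 passed there (0.97, edgeR adjusted p = 0.040). In the whole table that fit called 2623 of 14064 genes, 1261 of them lower.

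Of 13 proteases reported to cut these core proteins, 4 rose and 1 fell, with a median of 0.89. The gelatinase MMP9 had 0, 2 and 3 counts in controls and 223, 62 and 27 with high cuff pressure (log2 fold change 6.31, and 5.15 to 6.98 as single libraries were left out). The collagenase MMP13 had a log2 fold change of 4.21 and the aggrecan and versican proteases ADAMTS9 and ADAMTS4 of 2.23 and 2.99; ADAMTS4 is named after its value was seen. As single libraries were left out MMP13 ran from 3.55 to 4.80. Leaving out high cuff pressure replicate 1, 8 of the 13 rose and 1 fell, in a fit that called 2623 of 14064 genes, 1261 lower. MMP2, a gelatinase of fibroblasts, fell by 1.08 on the log2 scale. Of 21 receptors and ligands tested that bind members of the family, 2 rose and 0 fell. These were TLR4 (1.82), a receptor for soluble biglycan, and its co-receptor CD14 (2.27), while TLR2 stood at -0.35 and did not pass. CD14 is also one of the 4 macrophage markers that rose, so the same value counts in both lists, and the part of the higher macrophage and neutrophil markers in these results was not tested. Without high cuff pressure replicate 2, or without any single control, 0 genes passed in each of the 7 pathway lists.

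Of the 10 members, 9 lie in 3 clusters of the genome, given here as the deposited table places them. No source used here names its build. On chromosome 1, OGN (70251553 to 70270135), OMD (70282448 to 70284339) and ASPN (70308335 to 70328717) share a strand and are followed by ECM2 (70346878 to 70372106). On chromosome 4, EPYC (70179774 to 70215416), KERA (70262755 to 70269273), LUM (70315437 to 70323221) and DCN (70357924 to 70394929) lie on the same strand in a stretch of 215 kb. On chromosome 16 FMOD (68442915 to 68444276) lies inside the span of PRELP (68343577 to 68543160) on the other strand. BGN is placed on the scaffold GL018816 (868363 to 896614). In order of position on chromosome 4 the log2 fold changes were -2.01 for EPYC, -3.50 for KERA, -1.86 for LUM and -1.08 for DCN.

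Of 16 genes with a symbol outside the family that lay within 200 kb of a member and passed the filter, 0 fell and 2 rose. Rows without a symbol were not counted. They were CHI3L1 (3.56) and CHIT1 (2.69), chitinase relatives near PRELP. Beside OGN, NOL8 had a log2 fold change of -1.06 (edgeR adjusted p = 0.057) and IARS of -0.30. CENPP, a centromere protein gene, spans OGN, OMD, ASPN and ECM2 on the opposite strand, with 1, 0 and 0 counts in controls and 7, 19 and 32 with high cuff pressure. Whether the counting used strand is not given, and only the spans of these genes, and of FMOD and PRELP, are known to overlap. Whether their exons overlap, and whether any reads were credited to the wrong gene, was not tested. OGN had 1673, 2082 and 2680 counts in the controls, where CENPP had 1, 0 and 0.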

How the data were processed

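Gene counts from 6 polyA libraries (3 per group, as the labels state) were analysed; the labels' protocols name a DNBSEQ-T7, and HISAT2 2.0.4, StringTie 1.3.3b and edgeR are listed, with no role, in the submitters' processing notes. For genome build, annotation, strand and counting options no source used here gives an answer. The deposited table gives raw counts and, per the file headers, FPKM by the authors. A second deposited table adds the authors' mean FPKM, p-values and q-values. The deposited Gene Ontology table holds numbers of genes per term, p-values and a rich factor (the authors' ratio of 2 shares).

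Counts were fitted with edgeR 4.0.16 in R 4.3.3 (filterByExpr, TMM, robust glmQLFit, glmQLFTest, Benjamini-Hochberg over all genes tested, threshold 0.05). The fit was also run on simulated counts. Their spread followed the trend with mean level and no library was outlying, so that run does not show how the fit errs on these data. DESeq2 1.42.0 and limma 3.58.1 served as alternatives. Nothing says how libraries map to animals beyond n = 3 per group, so p-values measure the spread between libraries. Chi-square per degree of freedom between libraries of a group was 59.8 to 147, so none was a repeat of another. The members and the 17 lists (218 of 253 entries had a row, 4 through an older symbol) were chosen with earlier results of these data known. Genes were named by rule: all members, per list up to 3 called genes in each direction with the smallest p and the 2 with the highest FPKM, and genes within 200 kb of a member; a few further list genes were named after their values were seen.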

Additional observations from a re-analysis of the deposited data

How the results depend on the processing

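Settings beside the reported fit numbered 17. The count of 4 lower members was 4 or 5 in the settings that kept all libraries, except that it was 2 when scaled to fibroblast markers (a setting added after seeing the data), and ran from 0 to 4 as single libraries were left out; 0 members were higher in all 17. OGN, ASPN, KERA, LUM, DCN, FMOD and PRELP kept negative values in all 17 settings. BGN, at 0.02, turned negative with total counts only (-0.41), DESeq2 (-0.0018), limma-voom (-0.26), the replicate block (-0.24), log2(FPKM + 1) (-0.64) and log2(FPKM + 0.1) (-0.66), and ranged from -0.65 to 0.45 without single libraries. The median of all genes was -0.40 with total counts only. FMOD passed with DESeq2 (-1.81) and in both FPKM settings (-1.53 and -2.41). Replicate numbers showed no sign of a pairing. Deviations of same-numbered libraries from their group means correlated at -0.277, -0.201 and -0.234, and no library correlated best with its own number. Deviations from means of 3 libraries constrain each other, so these values cannot exclude a pairing. With the replicate block 4 members were lower, and 244 genes were called against 725. Over all genes DESeq2 called 2557 of 20174, total counts only 1630 of 13724 and scaling to fibroblast markers 342 of 13724. Of 13177 genes, log2(FPKM + 1) called 2182 and log2(FPKM + 0.1) 1851. The fit without high cuff pressure replicate 1 called 2623 of 14064, and without replicate 3 of that group 302 of 14041. Low counts limit ASPN, KERA, FMOD, EPYC and OMD in the injured libraries.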
